A study of Mus musculus with 3 samples.

Results

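The guanylate-binding proteins (GBPs) and the immunity-related GTPases (IRGs) are enzymes that interferons, above all interferon gamma, switch on in mouse cells. They were described here by 10 genes chosen by symbol, of 17121 genes in the expression table: Gbp2, Gbp3, Gbp4, Gbp5, Gbp6, Gbp7, Iigp1, Igtp, Irgm1 and Irgm2. GBPs and effector IRGs such as Iigp1 bind GTP, assemble on the membrane around an invading microbe and help to break it open. The regulator IRGs Igtp, Irgm1 and Irgm2 sit on the cell's own membranes and hold the effectors inactive there. Interferon gamma acts through its receptor chains Ifngr1 and Ifngr2 and induces the factor IRF1, which binds the promoters of many of these GTPase genes. T cells both make interferon gamma and respond to it.

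RNA was sequenced from CD8+ T cells of wild-type mouse spleen and lymph node after 3 days of culture, in 3 groups of 1 sample each. Aged TRM cells came from mice aged 18 months and were kept with antibodies to CD3 and CD28 (1 µg/ml), IL-15 (20 ng/ml) and TGF-beta (5 ng/ml), a mix that favours tissue-resident memory (TRM) cells. Young TRM cells, from mice aged 6 weeks, had the same mix, and young TCR cells, also from mice aged 6 weeks, had the antibodies alone, which trigger the T cell receptor (TCR) together with a co-stimulatory receptor. The number of mice behind a sample is not given, and no aged culture with antibodies alone was analysed here. Each sample had 2 numbered columns, treated as repeat measurements and not as replicates, so these data give no measure of how mice or cultures vary, and no p-value.

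The summed columns held 40385477 reads in aged TRM, 36021887 in young TRM and 39915663 in young TCR cells. Levels are given in CPM, a gene's reads relative to its library's total, scaled between libraries by trimmed means (TMM), and levels of different genes are compared only in the authors' TPM, which divides by transcript length. The words rose and fell are kept for genes whose log2 ratio of CPM, with a pseudocount of 1, was at least 1 in size and whose 95% interval of the ratio excluded 1. These intervals cover counting error only. In bulk RNA, fewer cells that express a gene and less RNA per cell cannot be told apart.

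The cells carried the markers of their label. Cd3e had 364, 380 and 302 CPM and Cd8b1 518, 593 and 424 CPM in aged TRM, young TRM and young TCR cells. Of 8 such markers Cd8a alone rose in young TRM over young TCR cells, at 1632, 1822 and 747 CPM. This was the order of the members' summed level. Cd2 (122, 189 and 223 CPM) and Zap70 (150, 138 and 160 CPM) were highest in young TCR cells instead. Macrophages and dendritic cells also express GBPs and IRGs. Of 12 of their markers, 8 stayed under 1 CPM in every sample, among them Lyz2 (0.861, 0.596 and 0.913 CPM), Csf1r and Adgre1, which had no read in young TRM cells. The list's summed level was 115, 141 and 64.2 CPM, in the order of the members' levels. Most of it was Ctss, at 89.2, 101.6 and 40.5 CPM, and Mpeg1, at 15.4, 28.7 and 4.22 CPM. The other markers that reached 1 CPM were highest in young TCR cells instead. These were Cd68, at 4.45, 5.25 and 9.23 CPM, and Itgax, at 4.21, 3.55 and 8.63 CPM. The summed B cell markers had 23.0, 16.9 and 46.2 CPM, and the summed CD4 T cell markers 30.1, 54.2 and 31.0 CPM. Of the CD4 T cell markers, Foxp3 had 3.71, 33.6 and 1.95 CPM and Cd4 itself 11.6, 12.4 and 10.5 CPM. Zbtb7b was lowest in young TRM cells, at 14.3, 8.03 and 18.1 CPM. Of 5 NK cell markers, Ncr1 (1.18, 2.19 and 0.0493 CPM), Klrb1c (3.47, 4.14 and 0.937 CPM), Tyrobp (1.35, 1.59 and 0.247 CPM) and Fcer1g (3.64, 4.51 and 1.23 CPM) rose in young TRM over young TCR cells, in the order of the members' levels. The list's summed level was 74.7, 105.9 and 219 CPM, mostly Eomes, which CD8 T cells also express, at 65.1, 93.5 and 217 CPM. The part of these cells in the results was not tested.

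All 10 members were well expressed, and all 10 had their highest level in young TRM cells. Their summed level was 3433 CPM in aged TRM, 5818 CPM in young TRM and 2122 CPM in young TCR cells, which was 0.346%, 0.569% and 0.216% of all reads. Young TRM cells were also the highest sample for 36.5% of all genes that reached 1 CPM. The columns of a sample stayed close, with a median difference over the members of 1.02-fold in aged TRM, 1.035-fold in young TRM and 1.01-fold in young TCR cells. The widest gap was 1.23-fold, for Iigp1 in young TCR cells.

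**Figure D1:**
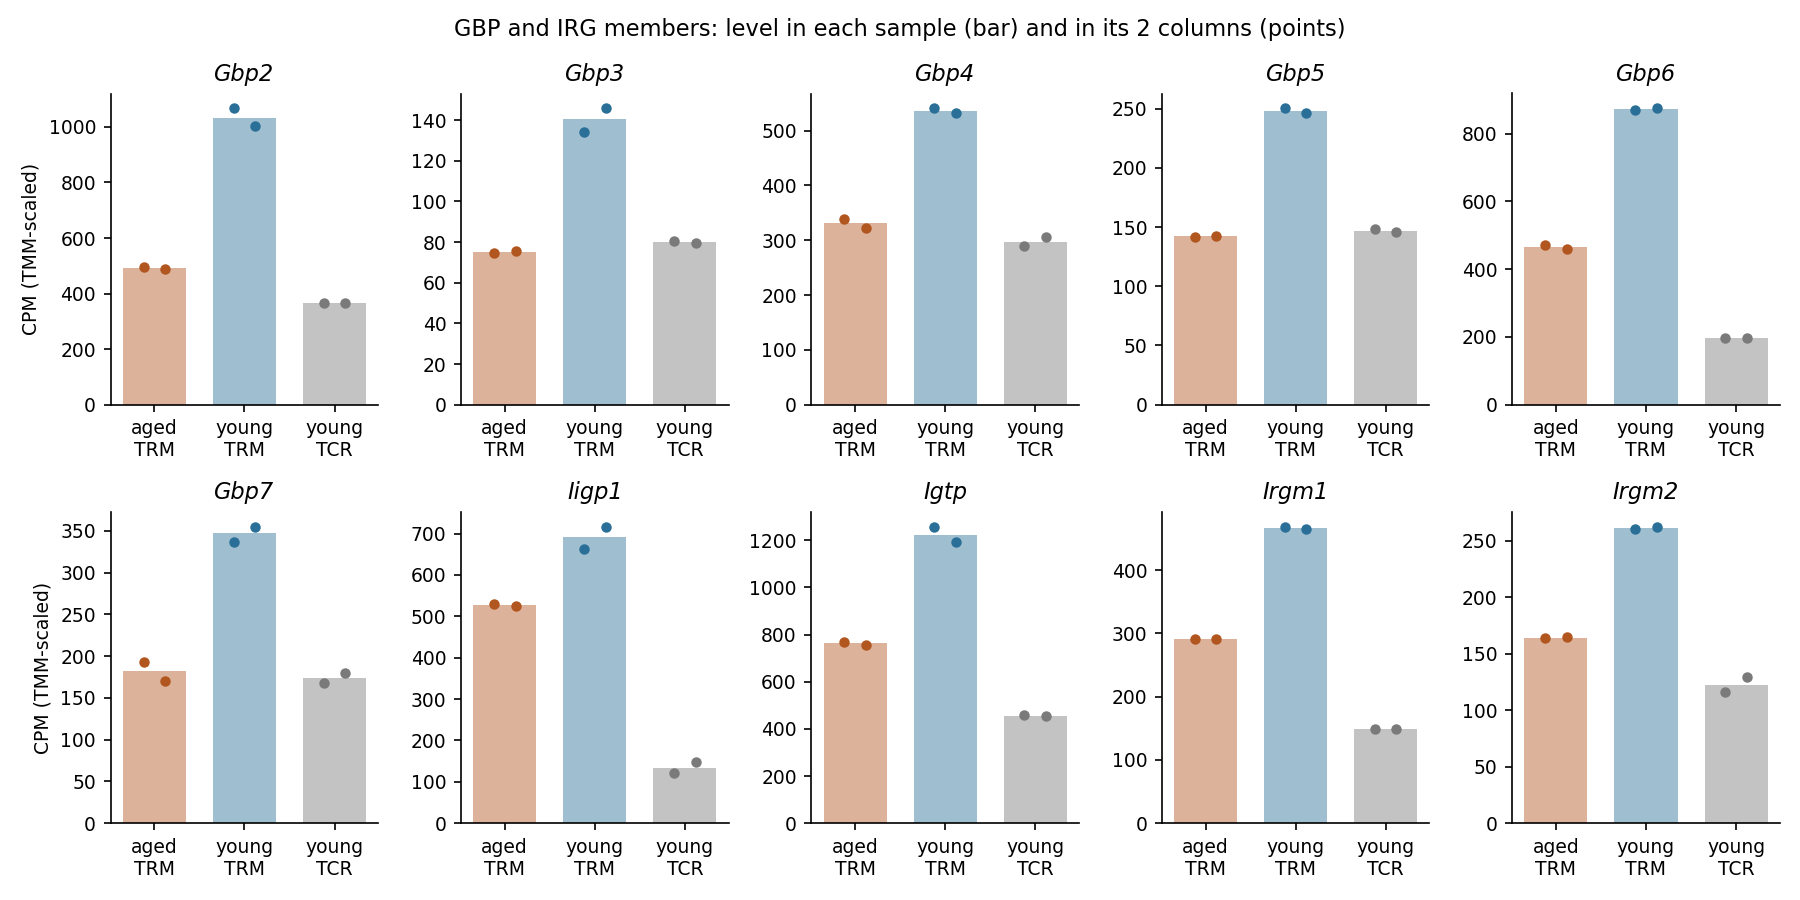
CPM of the 10 members (linear axes from 0, 1 panel per gene) in aged TRM, young TRM and young TCR cells. Bars are the summed columns of a sample and points its 2 columns. Young TRM is the highest bar in every panel, and the lowest bar is young TCR for all members except Gbp3 and Gbp5.

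Compared per length, the regulator Igtp was the most abundant member in every sample, at 770 TPM in aged TRM, 1196 TPM in young TRM and 449 TPM in young TCR cells. Gbp2 came next in each, at 407, 829 and 295 TPM. Gbp7 (65.2, 120 and 60.7 TPM) and Gbp3 (56.0, 100.2 and 58.0 TPM) were the lowest. Iigp1 changed place most. It ranked 3 of 10 in aged TRM and in young TRM cells, at 346 and 438 TPM, and 7 of 10 in young TCR cells, at 84.5 TPM.

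The genes stand in tight groups (positions from RefSeq, GRCm38.p6). On chromosome 3 lie Gbp5 (142496934 to 142522344), Gbp7 (142530336 to 142550151), Gbp3 (142560016 to 142573213) and Gbp2 (142620663 to 142638008). On chromosome 5 lie Gbp4 (105115767 to 105139586) and Gbp6 (105270702 to 105295871). On chromosome 11 lie Irgm1 (48865245 to 48871420), and further on Igtp (58199556 to 58207592) and Irgm2 (58214977 to 58222783). Neighbouring genes resemble each other, and no source used here gives the counting of reads that match several genes. Of all stretches of 50 bases in the longest Gbp6 transcript of GENCODE M21, 90.2% also occur in another gene, Gm43302, and 62.3% in Gbp10, so the level of Gbp6 is uncertain. For Gbp7 12.8% occur in other genes (10.6% in Gm43802), for Gbp4 12.8% and for Igtp 12.3%, all in Irgm2. For the other 6 members the share is between 0.23% for Gbp5 and 7.3% for Irgm2. Gm43302 and Gm43802 are not in the expression table under these symbols.

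Promoter stretches are shown because interferon-activated factors are known to act there and because neighbouring members share letters in them. RefSeq promoters (GRCm38.p6, 250 bases before to 50 after the start) were found for 7 members. None was found for Gbp4, Gbp6 and Iigp1, so the counts of matches say nothing of these. Both strands were searched for the core of the interferon-stimulated response element (ISRE), GAAA and GAAA with any 2 bases between them, and for the gamma-activated sequence (GAS), written TTCNNNGAA, which reads the same on both strands. These 7 genes have 8 promoters, since Gbp3 has 2. An ISRE match was found in 7 of the 8, all except the second of Gbp3, against 3.44% of all 32851 promoters of this length. A GAS match was found in 4 (Gbp5, Gbp7, Igtp and Irgm2), against 8.3%. Of 8 promoters of relatives, 5 held an ISRE match and 3 a GAS match. The ISRE match of 9930111J21Rik1 lies after the start. Gm12250, Tgtp1 and Tgtp2 held both kinds of match, and Ifi47, Gm5431 and 9930111J21Rik2 held neither. Of these relatives with both or neither, Gm12250 and Ifi47 rose in young TRM over young TCR cells and the rest did not. A tie between matches and levels was not tested. A match is only a run of letters and no shown binding site. For Igtp, Irgm2, Irgm1, Gbp2 and Gbp7, and for Gbp2b, a neighbour of Gbp2, the stretch around the matches, from upstream of the start, is given 5′ to 3′ on the gene's strand, with matches in capitals.
Igtp (chr11:58199496-58199546, plus strand): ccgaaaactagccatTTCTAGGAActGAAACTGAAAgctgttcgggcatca
Irgm2 (chr11:58214887-58214937, plus strand): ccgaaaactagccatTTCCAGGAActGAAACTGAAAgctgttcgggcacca
Irgm1 (chr11:48871421-48871465, minus strand): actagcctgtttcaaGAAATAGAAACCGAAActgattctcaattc
Gbp2 (chr3:142620589-142620628, plus strand): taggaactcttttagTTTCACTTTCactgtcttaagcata
Gbp7 (chr3:142530215-142530307, plus strand): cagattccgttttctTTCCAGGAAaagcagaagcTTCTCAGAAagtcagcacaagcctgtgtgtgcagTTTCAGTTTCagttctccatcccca
Gbp2b (chr3:142594695-142594734, plus strand): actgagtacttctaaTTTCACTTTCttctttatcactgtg

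Igtp and Irgm2 are identical at 49 of 51 bases of this stretch, and in both the GAS match ends a few bases before the ISRE match. Irgm1 and Gbp3 hold 2 overlapping ISRE matches each. In Gbp5, not printed, the ISRE match begins 165 bases before the start, further out than in the other members, where the ISRE matches begin between 24 and 64 bases before it. Gbp2b holds the same ISRE letters as Gbp2 but 137 bases before its start, against 59 in Gbp2. Its level was 0.123 CPM in aged TRM, 0.766 CPM in young TRM and 0.321 CPM in young TCR cells. Gbp2b was thus nearly silent where Gbp2 was among the most abundant members. Gbp5, with its ISRE match still further out, had 142, 248 and 147 CPM in these samples. Gbp2b was chosen after its values were seen, and a tie between match position and level was not tested.

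The first comparison asked what IL-15 and TGF-beta added to receptor stimulation in young cells. In young TRM cells 6 of 10 members rose over young TCR cells and none fell, where 4.18% of all 11588 genes tested rose, 3.6% fell and 7.78% changed in either direction. The median log2 ratio was 1.25 over the members and 0.02 over all genes tested. All 10 ratios were above 0, as were 51.9% of those of all genes, and all 10 members had both young TRM columns above both young TCR columns, as did 41.4% of all genes. The 4 IRGs all rose (median 1.53), whereas of the 6 GBPs Gbp2 and Gbp6 rose (median 0.92).

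Iigp1, the effector IRG, had 664 and 716 CPM in the columns of young TRM cells and 120 and 148 CPM in those of young TCR cells. The groups were far apart, 5.17-fold (95% interval 5.02 to 5.32), the widest gap of any member. Irgm1, a regulator IRG that also protects lymphocytes during interferon responses in mice, had 468 and 466 CPM in young TRM and 148 and 149 CPM in young TCR columns. It was 3.14-fold higher (3.05 to 3.23). Igtp had 1257 and 1193 CPM in young TRM and 459 and 454 CPM in young TCR columns, 2.68-fold higher (2.63 to 2.72). Irgm2, the weakest of the regulators, had 261 and 262 CPM in young TRM and 116 and 130 CPM in young TCR columns, 2.13-fold higher (2.06 to 2.21).

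Among the GBPs, Gbp6 had 870 and 874 CPM in young TRM and 196 and 197 CPM in young TCR columns. It was 4.44-fold higher (4.33 to 4.55), the widest gap among the 6 GBPs. Because Gbp6 shares much of its sequence with Gbp10, both were also summed, and the sum had 1153 CPM in young TRM and 271 CPM in young TCR cells (log2 ratio 2.09). Gbp2, which in mice helps to control intracellular parasites, had 1067 and 1002 CPM in young TRM and 367 and 364 CPM in young TCR columns, 2.82-fold higher (2.77 to 2.88).

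The other 4 GBP members were higher by less than the threshold. Gbp7 had 347 CPM in young TRM and 174 CPM in young TCR cells, at a log2 ratio of 0.99 just short of it. Gbp4 had 536 and 297 CPM (0.85), Gbp3 had 141 and 80.2 CPM (0.80), and Gbp5, which promotes inflammasome assembly in macrophages, had 248 and 147 CPM (0.75). Their intervals excluded a ratio of 1.

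**Figure D2:**
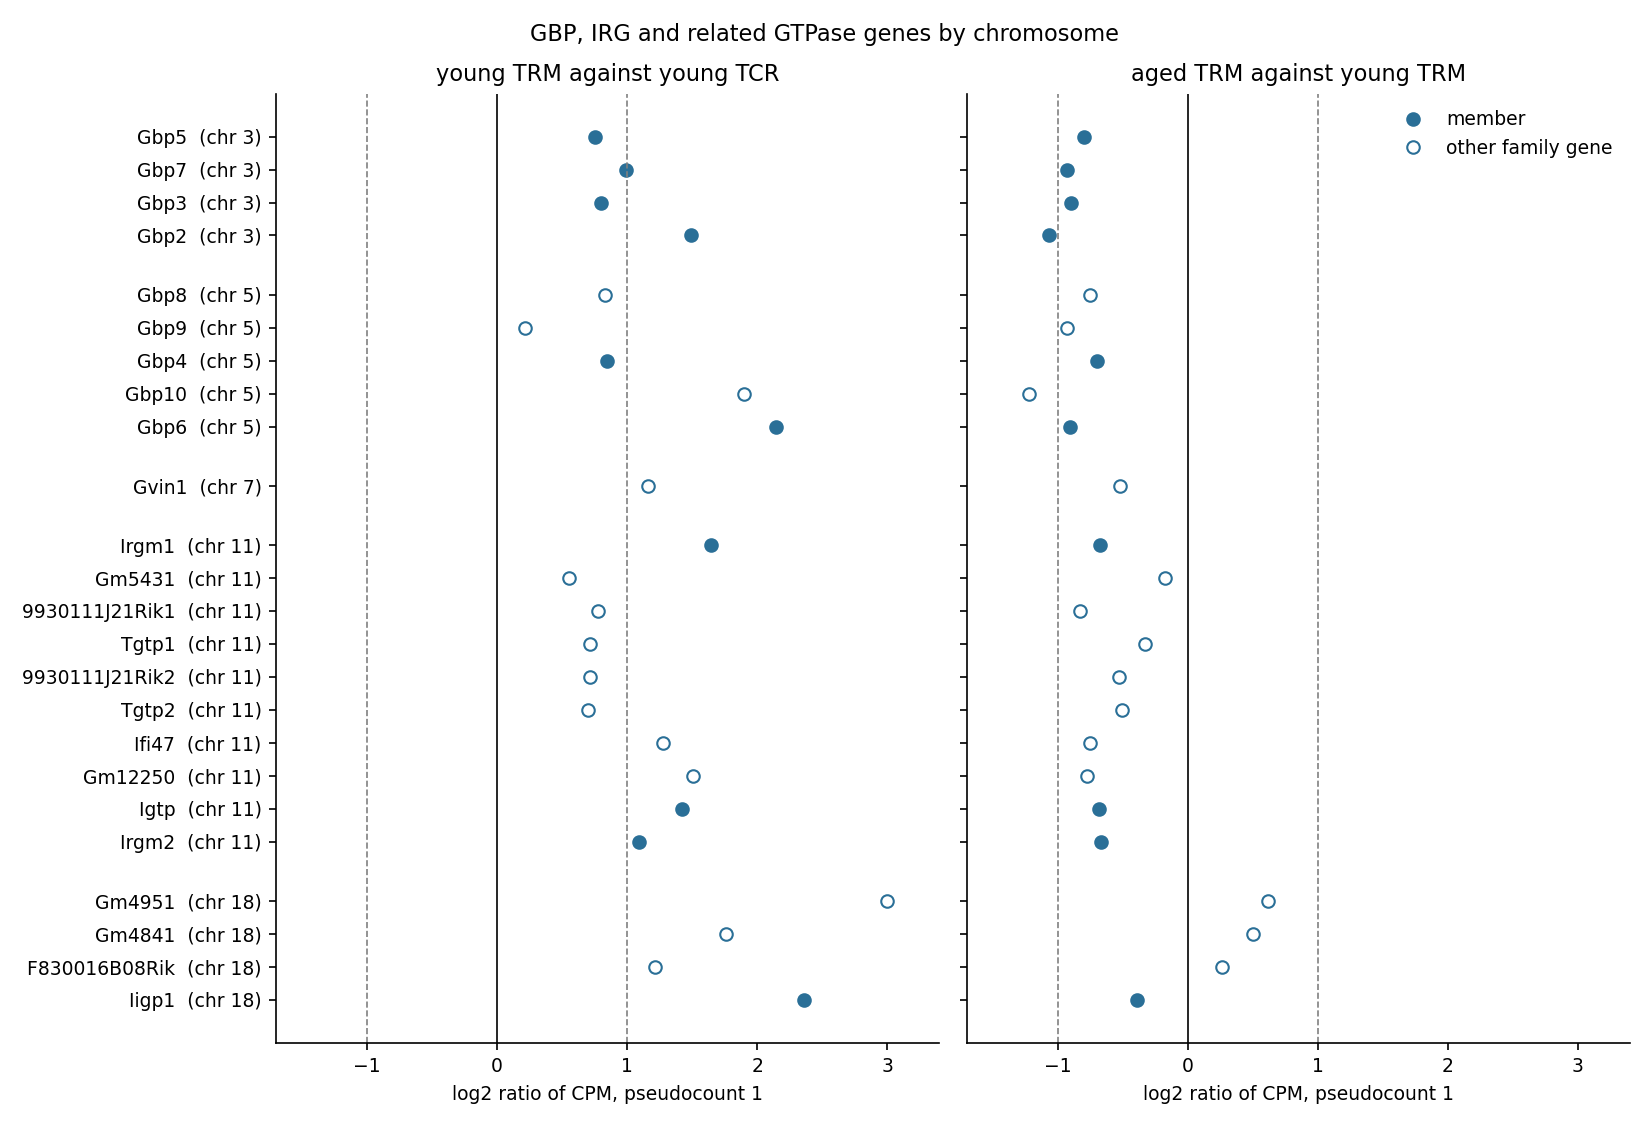
Log2 ratios of CPM (pseudocount 1) for the members (filled) and the other family genes of at least 1 CPM (open), ordered by chromosome and position, in young TRM against young TCR (left) and aged TRM against young TRM (right). Dashed lines mark 2-fold. All 24 genes lie right of 0 on the left, and on the right all 20 genes outside chromosome 18 lie left of 0.

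The age comparison set aged TRM cells against young TRM cells, both with the added cytokines. It shares the young TRM library with the first comparison, so a high value in that library raises the first ratios and lowers these. All 10 members were lower in aged TRM cells, with a median log2 ratio of -0.75, against -0.01 over all genes tested, of which 50.8% were lower. Only Gbp2 passed the threshold, 1 of 10, where 1.15% of 11575 genes fell, 2.25% rose and 3.4% changed in either direction. For the other 9 the decrease was smaller than 2-fold. In all 10, both aged TRM columns lay below both young TRM columns, as did 38.1% of all genes.

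Gbp2 fell to 496 and 487 CPM in the columns of aged TRM cells, against 1067 and 1002 CPM in those of young TRM cells, and was 2.10-fold lower (2.06 to 2.13). Gbp7 came next with 193 and 170 CPM in aged TRM and 337 and 355 CPM in young TRM columns (log2 ratio -0.93). It passed the threshold in column 2 alone (-1.06). Gbp6 had 465 CPM in aged TRM and 873 CPM in young TRM cells (-0.91), its sum with Gbp10 had 585 and 1153 CPM (-0.98), and Gbp3 had 75.1 and 141 CPM (-0.90). Gbp5 had 142 and 248 CPM (-0.80) and Gbp4 had 331 and 536 CPM (-0.69). The 6 GBPs thus had a median of -0.90.

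The 4 IRGs had a median of -0.67. The regulators Irgm1, Igtp and Irgm2 had nearly the same log2 ratio (-0.68, -0.68 and -0.67), from 292 and 467 CPM, 763 and 1221 CPM, and 164 and 262 CPM in aged TRM and young TRM cells. Iigp1 differed least of all members, with 530 and 526 CPM in aged TRM and 664 and 716 CPM in young TRM columns (-0.39).

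Aged TRM and young TCR cells differ in both age and cytokines, so their values are only set side by side. Gbp6 (465 CPM in aged TRM and 196 CPM in young TCR cells) and Iigp1 (528 and 134 CPM) were past 2-fold higher and no member past 2-fold lower. Of 11688 genes tested, 4.12% were past 2-fold higher, 2.33% past 2-fold lower and 6.45% either. Of the members 8 of 10 had a ratio above 0, as had 50.9% of all genes. The median log2 ratio was 0.85 over the IRGs and 0.11 over the GBPs. Below the threshold, Irgm1 (292 and 149 CPM) had a log2 ratio of 0.97 and Igtp (763 and 456 CPM) of 0.74. Gbp3 (75.1 and 80.2 CPM), Gbp5 (142 and 147 CPM) and Gbp7 (182 and 174 CPM) had log2 ratios between -0.09 and 0.07. For Gbp7 the columns of the groups overlapped, at 193 and 170 CPM in aged TRM and 167 and 180 CPM in young TCR cells.

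**Figure D3:**
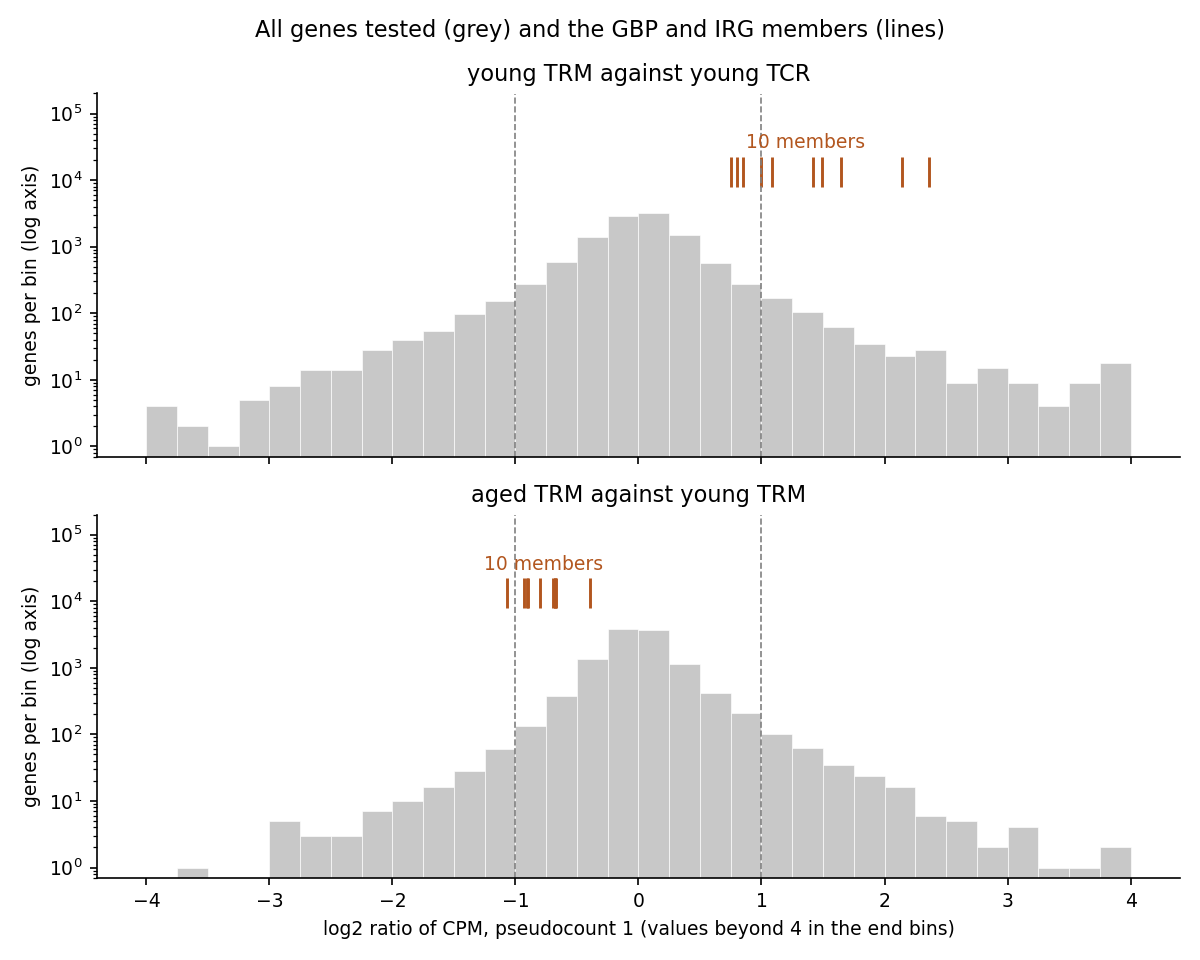
Number of genes tested per bin of the log2 ratio (log axis, bins of 0.25, values beyond 4 in the end bins), for young TRM against young TCR (top) and aged TRM against young TRM (bottom). Lines mark the 10 members, between 0.75 and 2.36 at the top and between -1.07 and -0.39 below, and dashed lines mark 2-fold.

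Of 16 further GBP, IRG and large interferon-inducible GTPase genes in the table, 14 reached 1 CPM. In young TRM over young TCR cells 7 of the 14 rose and none fell, with a median log2 ratio of 0.995, where 4.18% of all genes rose and 3.6% fell. In aged TRM against young TRM cells 1 fell, Gbp10, and none rose, with a median of -0.53, where 1.15% of all genes fell and 2.25% rose. Gbp10 had 120 CPM in aged TRM, 281 CPM in young TRM and 74.4 CPM in young TCR cells. Ifi47, also called Irgd, had 395, 665 and 274 CPM, Gm12250, which encodes Irgb10, had 170, 291 and 102 CPM, and Gvin1, a very large inducible GTPase, had 695, 1000 and 447 CPM. These rose in young TRM over young TCR cells. Of the 50-base stretches of Gvin1, 98.3% also occur in Gm4070, so its own level is uncertain, and the sum of both had 1430 CPM in aged TRM, 2064 CPM in young TRM and 947 CPM in young TCR cells (log2 ratio 1.12 in the first comparison).

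Some relatives moved less. Gbp9, next to Gbp4, had 96.2 CPM in aged TRM, 184 CPM in young TRM and 158 CPM in young TCR cells, a log2 ratio of only 0.21 in the first comparison. Gbp8, its other neighbour, had 99.6, 168 and 94.2 CPM. Tgtp1 (500, 628 and 381 CPM) and Tgtp2 (318, 451 and 277 CPM), also called Irgb6 genes, share 89.4% of the 50-base stretches of Tgtp1, so their split is uncertain, and their sum had 818, 1079 and 659 CPM. The Irgb-type genes 9930111J21Rik1 (28.7, 51.7 and 29.7 CPM), 9930111J21Rik2 (10.3, 15.3 and 8.93 CPM) and Gm5431 (1.55, 1.87 and 0.962 CPM) resemble each other as well. None of these passed the threshold.

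On chromosome 18 lie Iigp1 (60373616 to 60392634) and 3 relatives, whose values differed from the rest of the family in the age comparison. Gm4951 had 91.2 and 90.5 CPM in the columns of aged TRM, 58.3 and 59.5 CPM in those of young TRM, and 5.75 and 7.28 CPM in those of young TCR cells. Gm4841 had 24.2, 16.8 and 4.24 CPM, and F830016B08Rik had 44.3, 36.7 and 15.2 CPM. All 3 rose in young TRM over young TCR cells, Gm4951 by 9.05-fold (7.96 to 10.3), and all 3 were highest in aged TRM cells. Against young TRM cells their log2 ratios were 0.62, 0.50 and 0.27, under the threshold. All 20 family genes elsewhere that reached 1 CPM were lower in aged TRM than in young TRM cells, as were 50.8% of all genes. For Gm5431, at 1.55 and 1.87 CPM, the interval of the ratio (0.576 to 1.19) included 1. This grouping by chromosome was made after the values were seen.

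The levels of Ifng, which encodes interferon gamma, had another order than those of the GTPases. Ifng rose to 476 and 480 CPM in the columns of aged TRM cells, against 82.9 and 81.4 CPM in those of young TRM cells, and had 104 and 101 CPM in young TCR cells. The sample with the most Ifng thus was not the one with the most GBP and IRG transcripts, and the sample with the most of these had the least Ifng. Between young TRM and young TCR cells, however, Ifng differed by less than the threshold (log2 ratio -0.32). Transcript levels say nothing of secreted protein, and 1 time was sampled.

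Ifngr2, Irf1 and Socs1 had their highest level in young TRM cells, as the members had. Ifngr2, the signalling chain of the receptor, had 47.1 CPM in aged TRM, 90.5 CPM in young TRM and 18.0 CPM in young TCR cells, 5.03-fold higher (4.64 to 5.46) in young TRM than in young TCR cells. The ligand-binding chain Ifngr1 had another order, at 313, 370 and 433 CPM, none past the threshold. Irf1 had 427, 772 and 313 CPM, and Socs1, the feedback inhibitor of this pathway, had 91.6, 155 and 73.9 CPM. Irf1 and Socs1 rose in young TRM over young TCR cells, and their levels were lower in aged TRM than in young TRM cells by less than 2-fold.

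**Figure D4:**
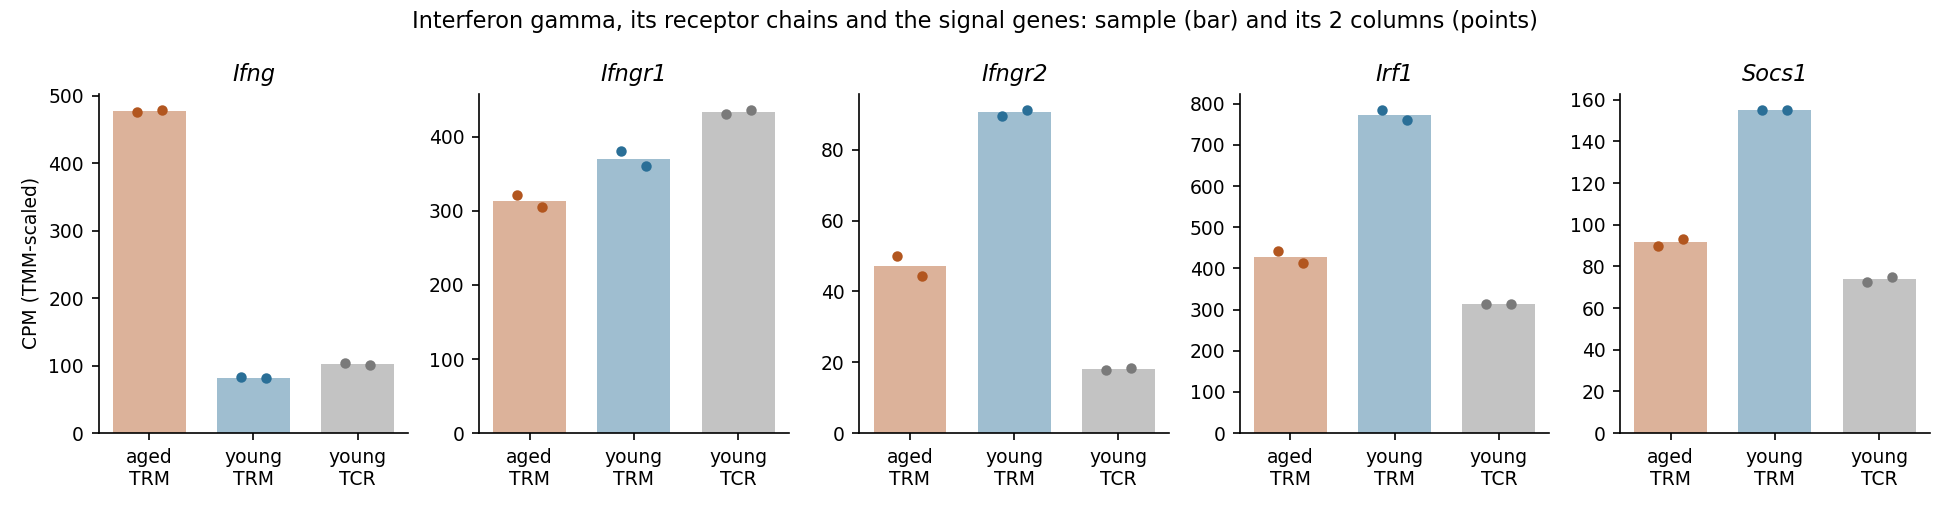
CPM (linear axes from 0) of Ifng, its receptor chains Ifngr1 and Ifngr2, the factor Irf1 and the feedback inhibitor Socs1 in aged TRM, young TRM and young TCR cells. Bars are the summed columns and points the 2 columns of a sample. Ifng is highest in aged TRM cells at 478 CPM, whereas Ifngr2, Irf1 and Socs1 are highest in young TRM cells.

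Over the whole list of 16 interferon gamma signal genes, 5 rose in young TRM over young TCR cells, among them Ifngr2, Irf1, Irf8 and Socs1, and none fell (median 0.43). In aged TRM against young TRM cells Ifng alone rose and none fell (median -0.36). Of all genes tested, 4.18% rose and 3.6% fell in the first of these comparisons, and 2.25% rose and 1.15% fell in the second. Of 19 tested interferon gamma targets that are not GTPases, 6 rose in young TRM cells and none fell (median 0.58). Upp1, a uridine-degrading enzyme, had 40.3 CPM in aged TRM, 47.7 CPM in young TRM and 4.86 CPM in young TCR cells. The chemokine gene Cxcl10 had 7.72, 14.4 and 1.90 CPM, Wars, a tryptophan tRNA synthetase, had 231, 335 and 129 CPM, and Cd274, which encodes PD-L1, had 112, 140 and 50.5 CPM. In the age comparison none of the 19 passed the threshold (median -0.40), with H2-K1, a class I MHC gene, at 1917 CPM in aged TRM and 2787 CPM in young TRM cells.

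Genes of the type I interferon response, which are driven mainly through the ISRE, had a wider range of ratios than the members. Of 34 tested, 11 rose in young TRM over young TCR cells and none fell (median 0.77), where 4.18% of all genes rose and 3.6% fell. In aged TRM against young TRM cells 14 fell and none rose (median -0.78), where 1.15% of all genes fell and 2.25% rose. Oas3, an RNA sensor, had 10.6 CPM in aged TRM, 37.2 CPM in young TRM and 35.6 CPM in young TCR cells, and Ifit3 had 12.1, 87.7 and 4.81 CPM. Ifit1, which binds foreign RNA, had 6.30, 20.8 and 3.63 CPM. Of the 33 type I genes tested between aged TRM and young TCR cells, 13 had a log2 ratio above 0, as had 50.9% of all genes.

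The 6 genes nearest to the members in pattern were Armcx4, Irf1, Trim30a, Ifi47, Nedd4l and Rnf213. Likeness was the distance between log2 CPM values, each gene centred on its own mean over the 3 samples, and the members' median, over 9198 genes of at least 10 CPM. The distances were between 0.05 and 0.09, and those of the members were between 0.12 for Irgm2 and 1.12 for Iigp1. Armcx4 had 14.1 CPM in aged TRM, 25.3 CPM in young TRM and 10.6 CPM in young TCR cells, and Nedd4l, a ubiquitin ligase, had 24.7, 46.7 and 18.2 CPM. Trim30a had 157 CPM in aged TRM, 282 CPM in young TRM and 113 CPM in young TCR cells. With 3 samples such a likeness is a description only.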

How the data were processed

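RNA was extracted with a column kit and sequenced on a HiSeq instrument from standard Illumina libraries, per the labels' protocols. The submitters' processing notes name Bowtie and GRCm38 (mm10), and no source used here names the counting program or the annotation. The authors' deposited table gave estimated counts (headed read counts, not always whole) and TPM per column. A further 24 value columns were not used. Counts were rounded, and the 2 columns of a sample were summed. Scaling over the 3 samples was by TMM, in edgeR 4.0.16 (R 4.3.3), and ratios and 95% Clopper-Pearson intervals were computed in Python 3.11.15 with scipy 1.17.1. Genes of at least 1 CPM in 1 of the samples compared were tested over the whole table. The column levels given were scaled by the column's own total and the sample's TMM factor. Where either column alone was used as an alternative, TMM factors were computed anew from that column. With 1 sample per group no p-value was computed. The members, lists and rules were chosen with earlier results of these data known. Genes named were the members, relatives of at least 1 CPM, fixed signal genes (1 item is not reported here), the genes with the largest ratios of each list and the 6 nearest in pattern. Gbp2b and single marker genes were named after their values were seen. Of the gene IDs, 17071 matched the RefSeq table of GRCm38.p6. Alternatives were library totals, DESeq2 1.42.0 size factors, a pseudocount of 5, other filters, TPM and either column alone.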

Additional observations from a re-analysis of the deposited data

How the results depend on the processing

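The 6 members that rose in young TRM over young TCR cells were the same 6 genes under all 8 alternatives. Gbp2 fell in aged TRM against young TRM cells under all of them. The alternative filters could not change these calls, since every member was above 10 CPM in every sample. With column 2 alone 2 members fell in the age comparison, Gbp7 (log2 ratio -1.06) beside Gbp2, and the log2 ratio of Gbp7 in aged TRM against young TCR cells turned to -0.0855. With a pseudocount of 5, the type I list had 2 genes past 2-fold in aged TRM against young TCR cells, where it had 6 with a pseudocount of 1. Over all genes a pseudocount of 5, which pulls low-level genes towards a ratio of 1, left 296 higher and 190 lower genes in young TRM against young TCR, 87 and 62 in aged TRM against young TRM and 248 and 113 in aged TRM against young TCR. A minimum of 10 CPM left 349 and 234, 123 and 91, and 279 and 163. With a pseudocount of 1 the counts were 484 and 417, 260 and 133, and 482 and 272. No paired analysis was possible because each group had 1 sample. All results rest on 1 library per group, and both main comparisons on the same young TRM library.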

Other observations

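Partner genes of the GTPases were counted by the same rule. Of 21 tested genes for the ubiquitin-like loading machinery (such as Atg5 and Gabarapl2), for prenylation (such as Fnta and Fntb) and for inflammasomes, 1 rose and 2 fell in young TRM against young TCR cells, with a median log2 ratio of 0.05, where 4.18% of all genes rose and 3.6% fell. Rnf213, a giant ubiquitin ligase induced by interferon, rose, with 341 CPM in young TRM and 133 CPM in young TCR cells, and had 182 CPM in aged TRM cells. The inflammatory caspases Casp1 and Casp4 were lowest in young TRM cells. Casp1 fell to 5.88 CPM in young TRM, against 19.3 CPM in young TCR cells, and Casp4, which acts with GBPs on bacterial lipopolysaccharide, to 6.16 CPM, against 14.3 CPM. Both rose in aged TRM against young TRM cells, to 20.4 and 20.0 CPM, and none of the 21 fell, where 2.25% of all genes rose and 1.15% fell.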
